A study of Mus musculus with 6 samples.

Results

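Lysyl oxidases and collagen hydroxylases are the enzymes that modify collagen before and after it leaves the cell, and 10 of their genes were followed here: Lox, Loxl1, Loxl2, Loxl3, Loxl4, Plod1, Plod2, Plod3, P4ha1 and P4ha2. All probe sets annotated to these genes were taken, which gave 18 of the 45037 probe sets on the array. Of these, 16 were paired with a single gene and covered 9 of the 18193 genes measured that way. The 2 probe sets of Loxl2 were also paired with the gene model Gm21451, so their signal cannot be assigned to Loxl2 alone, and Loxl2 was therefore read only at the level of probe sets. The comparison was between 3 samples of juxtaglomerular (JG) cells and 3 samples of renal mesenchymal stromal cells (MSC). Both groups came from adult C57BL6 mice of the Ren1c YFP genotype, a yellow fluorescent reporter of the renin gene whose construct the labels do not describe. JG cells, which make renin in the wall of the afferent arteriole, were sorted as YFP+ cells. MSC were sorted with CD44, a surface antigen, then kept in culture until confluent, and the labels give their medium as DMEM with 10% FBS. The same growth entry stands on the JG samples, so whether these were cultured is not settled by the labels. Cell type and sort change together between the groups, and culture may do so too. Their parts in the differences below cannot be told apart and were not tested. Separate animals or cultures are not named behind the samples, so the p-values measure only the spread between these samples, which may be technical.

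Collagen chains are hydroxylated on proline and lysine inside the endoplasmic reticulum. The P4ha genes encode catalytic alpha subunits of prolyl 4-hydroxylase, whose product, hydroxyproline, keeps the collagen triple helix stable at body temperature. The Plod genes encode lysyl hydroxylases. The product of Plod2 acts mainly on the telopeptides at the ends of fibrillar chains, and hydroxylysine there sets the type of cross-link that forms later. Outside the cell, the copper-dependent lysyl oxidases encoded by Lox and Loxl1 to Loxl4 convert lysine and hydroxylysine to aldehydes, from which the covalent cross-links of collagen and elastin arise. In kidney these enzymes are known mostly from fibroblasts and from fibrosis, and several of the genes are known targets of hypoxia-inducible factors.

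Array intensities are in arbitrary units on a linear scale, and a probe set's level says nothing about another probe set's level. Array medians ran from 27.3 to 36.5. Across all genes, mean correlations between arrays were 0.973 within MSC, 0.860 within JG and 0.759 between groups, and JG sample 1 lay nearest to the MSC arrays, with correlations of 0.806 to 0.814. Cd44, the antigen of the MSC sort, averaged 974 in MSC and 139 in JG. Of the renin cell markers, Rgs2, Rgs5, Ace and Nr1h3 were called higher in JG among 6 measured, Kcnma1 was called lower, and Ren1 and Akr1b7 were not analysed here. The JG samples also carried kidney tubule transcripts: limma called 12 of 12 markers of the proximal tubule above MSC, with a summed intensity of 29689 to 40345 against 362 to 659 in MSC. Of 10 loop and distal tubule markers 9 were called higher in JG, with sums of 10106 to 17356 against 49.0 to 129.7. In all 3 MSC samples 7 of the 12 proximal tubule and 7 of the 10 loop and distal tubule markers lay below an intensity of 16, and none of either list did so in all JG samples. Fibroblast markers summed to 7204 to 18938 in JG, with the highest sum in JG sample 1, and to 1567 to 2771 in MSC. Limma called 5 of the 9 higher in JG and 1, Twist2, higher in MSC. Of the other marker lists, 6 of 10 endothelial and 4 of 10 macrophage and leukocyte markers were called higher in JG, 2 of 5 podocyte markers were called higher in MSC, and of 9 smooth muscle and pericyte markers 4 were called higher in MSC and 2 in JG. In such bulk samples, fewer cells of a type and less RNA per cell cannot be told apart, and the part that these other cells have in the differences below was not tested.

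All of the measured enzyme genes were brighter in MSC. In each of the 9 genes, every MSC sample lay above every JG sample, a separation with MSC on top that 18.5% of all genes showed. A difference was called when limma's adjusted p over all genes was under 0.05. By this rule MSC was higher for 5 of the 9 genes (Lox, Loxl3, Plod2, P4ha1 and P4ha2), and 7.63% of all genes were. None was called higher in JG, where the background was 7.70%, and none was at an unadjusted p under 0.05 in that direction either. The share of all genes at an unadjusted p under 0.05 is not given, here or for the lists below, so such counts have no background. The median difference, JG minus MSC, was -1.86 over the 9 genes and 0.07 over all genes, taken from log2(intensity + 16), the scale used for every log2 difference below, which understates changes of dim probe sets. In a separate limma fit to all probe sets, 12 of the 18 probe sets were called higher in MSC against a background of 5.57%, and 17 of 18 had groups that did not overlap, against 18.1%. The number of genes called was 3 in place of 5 without MSC sample 1, 2 or 3, and 5 without any of the JG samples. In those fits the share of all genes called higher in MSC was 2.86%, 2.38% and 2.26% without MSC samples 1, 2 and 3 and 14.5%, 7.07% and 5.22% without JG samples 1, 2 and 3. The number of probe sets called was 4, 4 and 5 without MSC samples 1, 2 and 3, and 12, 9 and 9 without JG samples 1, 2 and 3. The share of all probe sets called in these fits is not given here, so these counts have no background beside them.

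**Figure D1:**
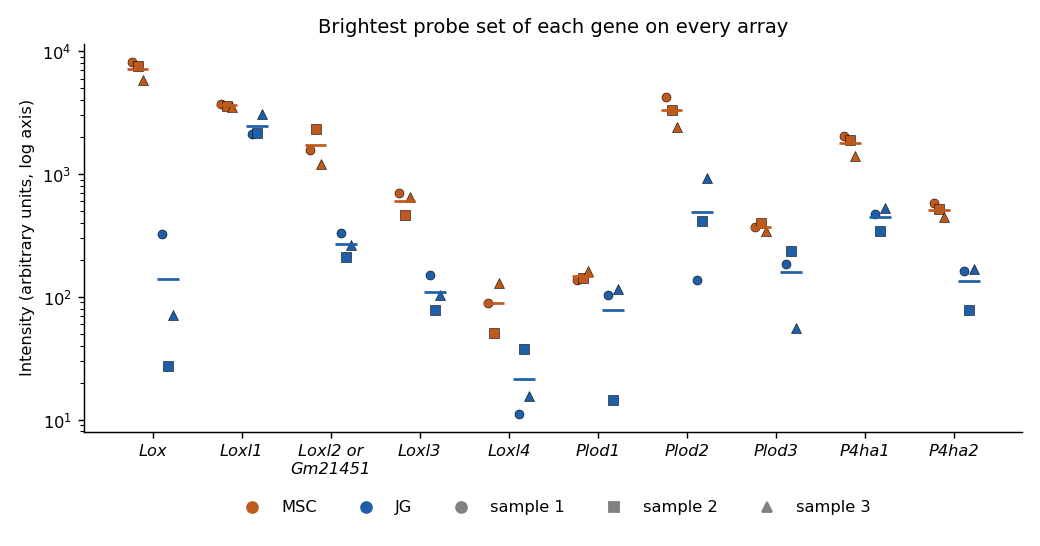
Intensity (log axis) of the brightest probe set of each gene on the 6 arrays. Orange symbols are MSC and blue symbols JG samples, their shape gives the sample number, and bars mark group means. Every MSC symbol stands above the JG symbols of the same gene. The JG symbols spread widely for Lox (27.34 to 322.88) and Plod2 (136.84 to 925.6) and narrowly for Loxl1 and P4ha1.

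Lox, which encodes the founding member of the lysyl oxidases, had the largest difference of the family. Its brightest probe set stood at 8246.3, 7656.14 and 5798.14 in MSC samples 1 to 3 and at 322.88, 27.34 and 70.92 in JG samples 1 to 3. The groups were separated by 18.0-fold between the lowest MSC and the highest JG sample, and JG sample 1 was the highest of the JG samples. The mean was 7234 ± 1278 (SD, n = 3) in MSC and 140 ± 160 (SD, n = 3) in JG, a log2 difference of -6.05 ± 0.73 (SE; limma adjusted p = 0.00345). Only 6 of the 18193 genes, 0.0330%, had a more negative difference. A second probe set read 5586.78, 4239.37 and 2923.78 in MSC and 60.29, 8.14 and 6.33 in JG. Its log2 difference was -6.90 ± 0.54 (adjusted p = 0.00136 over all probe sets), and because JG samples 2 and 3 lay under the added 16, its size depends on that number. The third probe set was dim on all arrays, between 33.37 and 42.85 in MSC and between 1.67 and 6.14 in JG, and was called in the same direction (-1.46 ± 0.21, adjusted p = 0.0117), although not without MSC sample 1 (0.0532), MSC sample 2 (0.0672) or MSC sample 3 (0.0661). All its JG values lay under 16, and its size moved with the added number, to -3.21 with 1 and -0.59 with 64. JG sample 1 was the highest JG sample on both brighter Lox probe sets. Without that sample the log2 difference of the brightest probe set was -6.87 (adjusted p = 0.000502), and with any of the other samples left out its adjusted p stayed at or under 0.0245.

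Loxl1, whose product is the family member tied to elastin and elastic fibres, differed far less. Its brightest probe set read 3756.17, 3599.1 and 3524.95 in MSC and 2118.38, 2141.58 and 3092.2 in JG. The groups did not overlap, but the lowest MSC sample exceeded the highest JG sample by a factor of only 1.14. The log2 difference of -0.58 ± 0.25 was not called (limma adjusted p = 0.163), and its 95% interval ran from -1.18 to 0.01. The dimmer Loxl1 probe set gave another answer, with 516.5, 913.84 and 814.78 in MSC and 318.96, 240.77 and 172.83 in JG. Its difference of -1.55 ± 0.33 was called (adjusted p = 0.0381 over all probe sets), although not without MSC sample 1 (0.0634), MSC sample 2 (0.144), MSC sample 3 (0.155), JG sample 2 (0.0753) or JG sample 3 (0.0923). With the mean of both probe sets in place of the brightest, Loxl1 was called at -1.07 (adjusted p = 0.0145).

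Loxl3 and Loxl4 encode lysyl oxidases with scavenger receptor domains ahead of the catalytic part. Loxl3 stood at 703.98, 465.22 and 650.24 in MSC and at 149.38, 77.77 and 103.04 in JG, and its lowest MSC sample was 3.11-fold above its highest JG sample. Its log2 difference of -2.32 ± 0.31 was called (limma adjusted p = 0.00517), in the gene fit also with any single sample left out (highest adjusted p = 0.0344). In the fit to all probe sets, its only probe set was not called without MSC sample 3 (adjusted p = 0.0521). Loxl4 read 88.88, 51.14 and 128.34 in MSC and 11.1, 37.29 and 15.69 in JG, so that JG samples 1 and 3 lay under 16. The difference of -1.49 ± 0.40 lay just outside the threshold (limma adjusted p = 0.0531). It was called without JG sample 2, the highest JG sample, in the gene fit (adjusted p = 0.0342) but not in the fit to all probe sets (0.0512). Its other probe set, at 29.98 to 43.5 in MSC and 1.12 to 20.9 in JG, was not called (-1.20 ± 0.35, adjusted p = 0.0884 over all probe sets). JG sample 2 was the highest JG sample there too, and without it that probe set was called (adjusted p = 0.0185). With 1 or 64 added in place of 16, the difference was -2.10 or -0.83 on the brighter and -2.77 or -0.48 on the other Loxl4 probe set, and neither was called.

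The 2 probe sets shared by Loxl2 and Gm21451 were both higher in MSC. The first read 1572.13, 2345.99 and 1207.82 in MSC and 327.89, 211.26 and 264.92 in JG (log2 difference -2.57 ± 0.32, limma adjusted p = 0.00699 over all probe sets). The second read 1151.53, 1287.12 and 999.04 in MSC and 534.96, 263.3 and 208.76 in JG (-1.83 ± 0.37, adjusted p = 0.0335). MSC samples exceeded all JG samples on both, by 3.68-fold and 1.87-fold at the nearest pair of samples. The first kept its call with any single sample left out (highest adjusted p = 0.0407). The second was called only without JG sample 1 among the 6 such fits (adjusted p = 0.00511), and reached an adjusted p of 0.132 in the others.

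**Figure D2:**
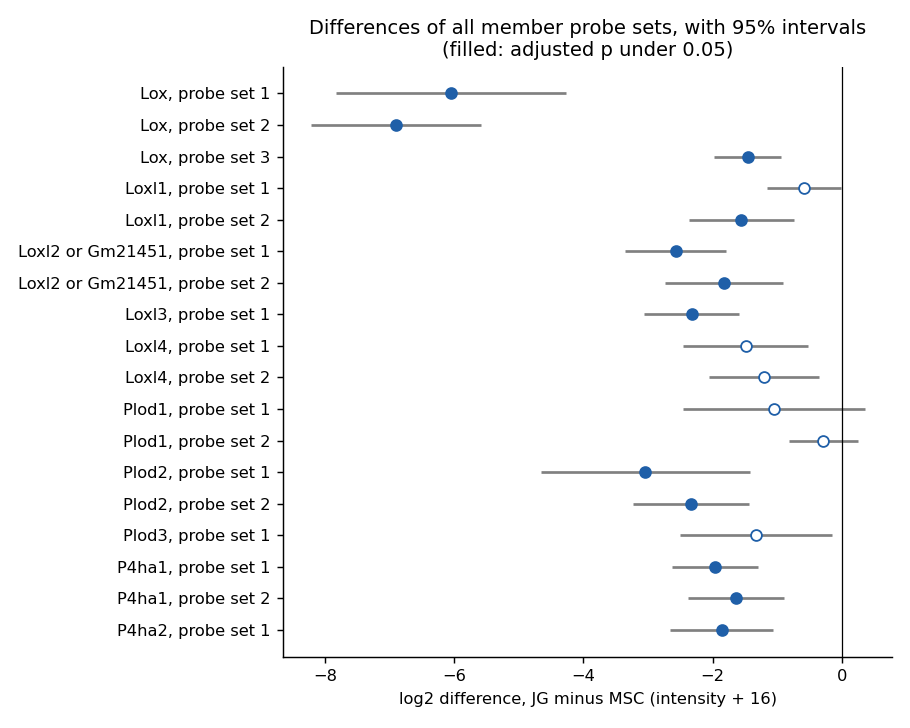
Log2 difference, JG minus MSC, of each of the 18 probe sets with its 95% interval from the limma fit to all probe sets. Filled circles are the 12 called probe sets, and those of a gene are numbered by falling MSC mean. All 18 points lie left of 0, from -6.90 for Lox to -0.29 for the dimmer Plod1 probe set.

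Of the lysyl hydroxylases only Plod2 was called. Plod2, the telopeptide lysyl hydroxylase, read 4220.44, 3345.86 and 2397.11 in MSC and 136.84, 411.6 and 925.6 in JG. JG sample 1 was the lowest for this gene, and JG sample 3 was 6.76-fold above it. The means were 3321 ± 912 (SD, n = 3) in MSC and 491 ± 400.4 (SD, n = 3) in JG, with a log2 difference of -3.04 ± 0.66 (limma adjusted p = 0.0285). Plod2 no longer passed when MSC sample 1 (adjusted p = 0.109), MSC sample 2 (0.106), MSC sample 3 (0.0836) or JG sample 2 (0.0577) was left out. The other Plod2 probe set, at 2165.09, 1762.42 and 970.18 in MSC and 224.07, 365.74 and 313.53 in JG, varied less among JG samples and was also called (-2.33 ± 0.37, adjusted p = 0.0153 over all probe sets). That call was lost without MSC sample 1 (0.0627) or MSC sample 2 (0.0778). On both probe sets JG sample 1 was the lowest.

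Plod1 and Plod3 encode the lysyl hydroxylases that act on the helical part of collagen, and the Plod3 product also adds sugars to hydroxylysine. Plod1 read 137.7, 141.06 and 162.24 in MSC and 103.84, 14.48 and 115.25 in JG. Here JG samples 1 and 3 lay close under the MSC samples and JG sample 2 far below them. The log2 difference of -1.06 ± 0.58 was not called (limma adjusted p = 0.262, 95% interval -2.44 to 0.33), without JG sample 2 it was -0.38 (adjusted p = 0.306), and with 64 added in place of 16 it was -0.66. The second Plod1 probe set was at most 10.21 on any array, so its samples have no order. Plod3 read 369.56, 396.83 and 345.32 in MSC and 184.1, 236.83 and 56 in JG, so that the outlying low value fell in JG sample 3. Its difference of -1.33 ± 0.49 was not called (adjusted p = 0.119, 95% interval -2.49 to -0.16), and without JG sample 3 it was -0.78 (adjusted p = 0.120).

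Both prolyl hydroxylase subunit genes were called higher in MSC by nearly the same amount. P4ha1 read 2060.41, 1892.91 and 1407.09 in MSC and 474.93, 341.98 and 532.15 in JG. Its means were 1787 ± 339 (SD, n = 3) and 449.7 ± 97.6 (SD, n = 3), and the log2 difference was -1.96 ± 0.28 (limma adjusted p = 0.00679). In the gene fit it was called with any single sample left out (highest adjusted p = 0.0426). In the fit to all probe sets, this brightest probe set was not called without MSC sample 1 (adjusted p = 0.0538) or MSC sample 2 (0.0591). The second P4ha1 probe set, at 537.69 to 1022.37 in MSC and 188.88 to 271.46 in JG, was called as well (-1.64 ± 0.30, adjusted p = 0.0250 over all probe sets), but only without JG sample 1 when a sample was left out (adjusted p = 0.0288 there and up to 0.104 otherwise). P4ha2 read 578.02, 521.36 and 442.64 in MSC and 162.25, 77.43 and 167.26 in JG, a log2 difference of -1.86 ± 0.33 (limma adjusted p = 0.0149). It lost its call without MSC sample 1 (0.0706), MSC sample 2 (0.0707) or MSC sample 3 (0.0572). In both genes JG sample 2 was the lowest and JG sample 3 the highest of the JG samples, and MSC sample 1 the highest and MSC sample 3 the lowest of the MSC samples.

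The promoters of P4ha1 and P4ha2 are shown because the pair differed together between the groups and both genes are known targets of hypoxia-inducible factors, which bind the core letters ACGTG or GCGTG. RefSeq windows for GRCm38.p6 were at hand for 5 of the 10 genes: Plod1, Plod3, P4ha1, P4ha2 and Loxl4. The 250 bases before the annotated start are printed 5′ to 3′ on the gene's strand. Capitals mark a match to either core on either strand, where CACGT and CACGC are the reverse complements. P4ha1 lies at chr10:59323046-59323295 on the + strand and P4ha2 at chr11:54100674-54100923 on the + strand.
P4ha1: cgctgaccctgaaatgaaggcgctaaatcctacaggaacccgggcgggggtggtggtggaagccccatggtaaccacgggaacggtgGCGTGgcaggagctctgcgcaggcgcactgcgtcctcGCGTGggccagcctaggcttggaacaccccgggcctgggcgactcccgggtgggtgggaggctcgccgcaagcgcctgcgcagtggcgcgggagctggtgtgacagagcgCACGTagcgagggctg
P4ha2: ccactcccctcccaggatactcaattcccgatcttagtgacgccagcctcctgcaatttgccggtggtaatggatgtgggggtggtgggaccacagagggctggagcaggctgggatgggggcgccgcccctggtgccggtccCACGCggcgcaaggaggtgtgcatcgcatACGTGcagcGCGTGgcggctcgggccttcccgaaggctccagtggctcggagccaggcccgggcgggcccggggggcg
Each of these windows held 3 matches. In P4ha2 an ACGTG at 74 to 78 bases and a GCGTG at 65 to 69 bases before the start stood side by side. In P4ha1 the match nearest to the start was a reverse-strand ACGTG at 12 to 16 bases before it.

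The other 3 windows held matches too, including those of the uncalled genes Plod1 and Plod3, and 35 bases around a match in each are given for comparison.
Plod1: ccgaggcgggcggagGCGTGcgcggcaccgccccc
Plod3: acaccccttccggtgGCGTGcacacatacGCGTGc
Plod3: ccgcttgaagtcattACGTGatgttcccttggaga
Loxl4: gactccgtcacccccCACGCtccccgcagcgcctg
Plod3 had 4 matches, of which 1 was an ACGTG, and Plod1 and Loxl4 had 1 GCGTG match each. Over all 32851 windows of the same length, 38.6% held either core, 16.6% ACGTG and 28.2% GCGTG. The 5 windows had a G and C content of 55.6% to 76.0%, against a median of 52.4% over all windows. A match is a description of letters and not a binding site, and matches occurred in called and uncalled genes alike.

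Unequal changes within the families were looked at through the log2 difference between 2 genes on each array, in 10 pairs. Lox relative to Loxl1 differed between JG and MSC by -5.46 ± 0.93 (SE). The array values of Lox minus Loxl1 were 1.13, 1.09 and 0.72 in MSC and -2.65, -5.64 and -5.16 in JG. The same difference was -3.72 ± 0.68 for Lox relative to Loxl3, -4.56 ± 1.22 for Lox relative to Loxl4 and 1.74 ± 0.36 for Loxl1 relative to Loxl3. In these 4 pairs the groups did not overlap, and the exact two-sided permutation p was 0.10, the smallest that 3 against 3 samples allow (0.25 after Benjamini-Hochberg adjustment over the 10 pairs). The other 6 pairs overlapped. Plod2 relative to Plod3 was -1.71 ± 1.24 (exact permutation p = 0.40, adjusted 0.50), so the larger difference of Plod2 lay within the spread of the JG samples. P4ha1 relative to P4ha2 was -0.10 ± 0.16 (exact permutation p = 0.60, adjusted 0.67).

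The JG samples were not low in the same order for all members. Intensities under 16 were not ranked among themselves, which left a lowest JG sample on 13 and a highest on 16 of the 18 probe sets. JG sample 1 was the lowest on 3 of the 13, JG sample 2 on 7 and JG sample 3 on 3. Over all probe sets the trimmed mean of JG sample 2 was 153.5, against 198.4 and 194.5 in JG samples 1 and 3. Its median, 29.0, lay above the 27.4 of JG sample 1. The part of this array-wide level in the order was not tested. JG sample 1 was the highest on 6 of the 16, JG sample 2 on 4 and JG sample 3 on 6. For JG sample 1 these were both brighter Lox probe sets, both shared Loxl2 probe sets, Loxl3 and the dimmer Loxl1 probe set. The same sample was the lowest on both Plod2 probe sets and the brighter Loxl1 probe set. The median SD of a member probe set on the log2 scale was 0.46 in JG and 0.28 in MSC, and in 13 of 18 the JG samples varied more. The share of all probe sets that did so is not given here. Over all genes, too, arrays correlated less within JG (mean 0.860) than within MSC (0.973). The ratio of the highest to the lowest JG sample was 11.8 for Lox, 7.96 for Plod1, 6.76 for Plod2 and 4.23 for Plod3 on their brightest probe sets, and 1.46 for Loxl1 and 1.56 for P4ha1. In MSC the same ratio was between 1.07 for Loxl1 and 2.51 for Loxl4.

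**Figure D3:**
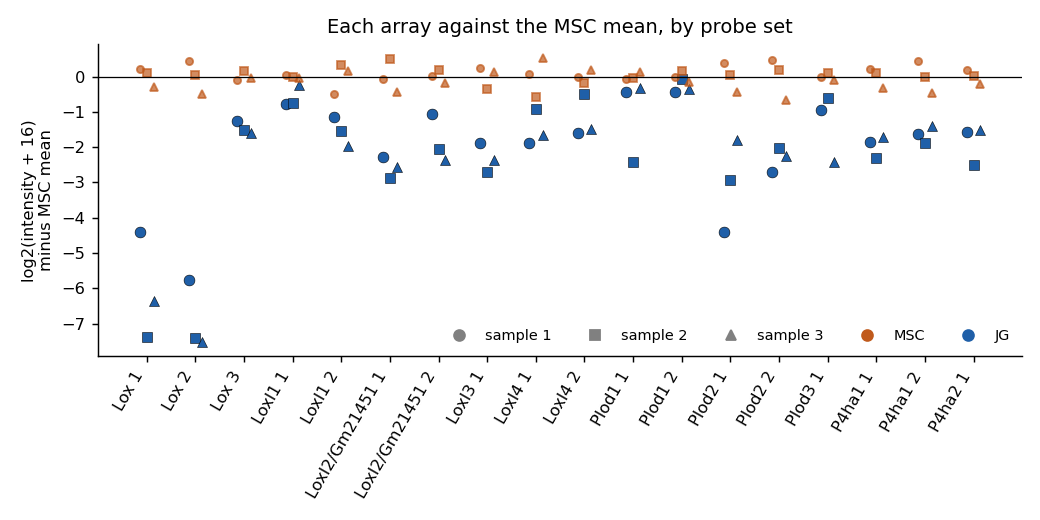
Log2 of the intensity plus 16 on each array minus the MSC mean, for all 18 probe sets. Orange symbols are MSC and blue symbols JG samples, with the shape giving the sample number and probe sets of a gene numbered by falling MSC mean. JG sample 1 (circle) is the highest blue symbol for both brighter Lox probe sets and the lowest for Plod2, where it reaches -4.41 on the brightest probe set, while JG sample 2 (square) alone is far down for Plod1 at -2.42.

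**Figure D4:**
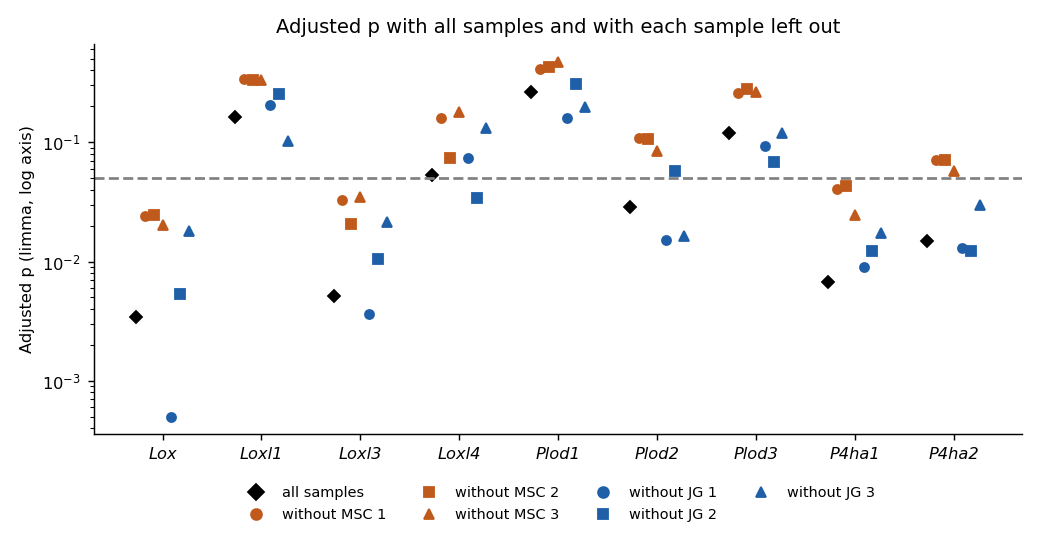
Limma adjusted p (log axis) of the 9 genes with all samples (black diamonds) and with each sample left out (orange for MSC, blue for JG), and the threshold of 0.05 as a dashed line. Lox, Loxl3 and P4ha1 stay under the line in all 6 fits with a sample left out, whereas Plod2 and P4ha2 cross it whenever an MSC sample is missing.

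Genes whose pattern over the 6 arrays was most like that of a member were found by the root mean square difference of log2 values, each centred on its own mean, over all genes. Nearest to Lox were Cldn11 (0.45), which encodes a claudin, Hs6st2 (0.46), which encodes a heparan sulfate sulfotransferase, and Snai2 (0.61), which encodes a transcription factor of mesenchymal cells. Nearest to Plod2 were F2r (0.32), the thrombin receptor gene, Inf2 (0.34), a formin gene, and Chst2 (0.39), a sulfotransferase gene. P4ha1 had Lrrc8c (0.09), Hsf2 (0.13) and Ift81 (0.14) and P4ha2 had Pafah1b2 (0.12), Utp18 (0.13) and again Ift81 (0.13). Nearest to Loxl3 was Nepro (0.12), to Loxl1 Srpk2 (0.07), to Loxl4 Ppm1a (0.14), to Plod1 Yy1 (0.07) and to Plod3 Nipsnap3b (0.14). Distances were larger for Lox and Plod2, whose differences were the largest, than for any other member.

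Most called partners of these enzymes in the endoplasmic reticulum were higher in MSC. Of 13 measured genes of collagen folding and modification 5 were called higher in MSC (38.5%) and 1 in JG, against 7.63% and 7.70% of all genes. The median log2 difference was -1.30. P4ha3, the third prolyl hydroxylase alpha subunit gene, read 645.09, 316.06 and 183.78 in MSC and 3.76, 18.25 and 16.35 in JG (-3.66 ± 0.49, limma adjusted p = 0.00511). Colgalt1, which encodes a galactosyltransferase for hydroxylysine, read 639.31, 964.77 and 869.89 in MSC and 188.9, 175.48 and 173.03 in JG (-2.09 ± 0.25, adjusted p = 0.00322). Crtap, P3h1 and P3h4, whose products belong to prolyl 3-hydroxylase or lysyl hydroxylase complexes, were called at -1.80, -1.43 and -1.30. P3h2, a prolyl 3-hydroxylase of basement membrane collagen, went the other way, with 84.44, 213.3 and 99.28 in MSC and 957.58, 374.57 and 1164.58 in JG (2.47 ± 0.53, adjusted p = 0.0269). P4hb, the beta subunit that P4ha1 and P4ha2 need, read 3042.62, 3073.56 and 3153.65 in MSC and 2151.16, 235.87 and 742.14 in JG, and its difference of -2.06 ± 0.74 missed the threshold (adjusted p = 0.112). The collagen chaperone gene Serpinh1 (-1.23, adjusted p = 0.0664) and the cyclophilin B gene Ppib (-1.01, adjusted p = 0.187) were not called either. P4ha3 and Colgalt1 were called with any single sample left out. Leaving out MSC sample 2 or 3 turned the 5 calls into 2, leaving out JG sample 3 into 3 and leaving out JG sample 1 into 9. The shares of all genes called higher in MSC in such fits, given above, moved too, here and for the lists below. P3h2 lost its call when MSC sample 1, MSC sample 3 or JG sample 3 was missing (adjusted p up to 0.111), which left 0 calls higher in JG.

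Of 12 genes of procollagen export and processing limma called 4 with MSC higher (33.3%, against 7.63% of all genes). It called 0 with JG higher (7.70% of all genes), where 1 passed an unadjusted p under 0.05 (Pcolce2). The median was -1.67. Sec23a, a coat protein gene of the vesicles that leave the endoplasmic reticulum, read 1725.41, 1730.34 and 2095.62 in MSC and 819.62, 176.19 and 327.52 in JG (-2.29 ± 0.53, adjusted p = 0.0356). Creb3l2 (-1.79) and Creb3l1 (-1.22), transcription factor genes of the secretory pathway, and Pcolce (-1.56), the enhancer of procollagen C-proteinase, were the others. Bmp1, which encodes that proteinase and also cleaves the Lox proenzyme, read 263.26, 451.39 and 339.02 in MSC and 245.76, 38.85 and 36.16 in JG, and its difference of -1.98 ± 0.66 missed the threshold (adjusted p = 0.0945). Sec13 (adjusted p = 0.0581) and Mia3 (0.449) were not called. With MSC sample 1 or 2 left out there was 1 call, with MSC sample 3 or JG sample 3 there were 0, with JG sample 2 there were 6 and with JG sample 1 there were 8. Leaving out JG sample 2 also gave 1 call higher in JG.

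The substrates were split between the groups. Of 17 chains of collagen and elastin 5 were called higher in MSC (29.4%) and 3 in JG, against 7.63% and 7.70% of all genes. The median was -0.53. Col1a1, the main chain of type I collagen, read 7962.01, 8879.69 and 6962.6 in MSC and 7448.46, 4629.78 and 4729.1 in JG, so that the groups overlapped (-0.53 ± 0.28, limma adjusted p = 0.247, 95% interval -1.20 to 0.14). Col1a2 overlapped as well, at 10760.4, 11527 and 6119.24 in MSC and 7064.9, 1507.16 and 2681.08 in JG (-1.57 ± 0.59, adjusted p = 0.128). Col11a1, a minor fibrillar chain, was called at -5.81 ± 0.33 (adjusted p = 0.000189), with 14.2 as its JG mean, under the added 16, so its size depends on that number (-6.94 with 1 and -4.44 with 64). Col5a2 (-2.97), Col12a1 (-2.93), Col4a2 (-2.03) and Col4a1 (-1.45) were the other calls in that direction. Eln, which encodes the elastin cross-linked by lysyl oxidases, was higher in JG: it read 15.48, 14.84 and 26.06 in MSC and 190.77, 569.24 and 248.8 in JG (3.21 ± 0.43, adjusted p = 0.00511). Col6a2 (4.96) and Col14a1 (2.76) were also called higher in JG. Col6a2 read 820.8 in MSC sample 3 and 31.63 and 51.65 in the other MSC samples. Col11a1 and Eln kept their calls with any single sample left out. In the MSC direction the 5 calls dropped to 1 when MSC sample 1 or 3 was missing, to 2 for MSC sample 2 and to 3 for JG sample 3. In the JG direction the 3 calls dropped to 1 when MSC sample 1 or 2 was missing and lay between 2 and 4 in the other fits.

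Among 9 partners of lysyl oxidases and genes of copper supply only Thbs1 was called, higher in MSC (11.1%, against 7.63% of all genes). The median was -0.21. Thbs1, the thrombospondin 1 gene, read 4697.03, 2771.66 and 1740.92 in MSC and 77.45, 114.46 and 44.88 in JG (-4.97 ± 0.46, limma adjusted p = 0.00119), and was called with any single sample left out. No gene was called higher in JG by limma (7.70% of all genes were), and 1 was at an unadjusted p under 0.05 (Slc31a1, the copper importer gene, 1.14, adjusted p = 0.0904). Without JG sample 2 there was 1 call higher in JG, and without JG sample 1 there were 2 higher in MSC. Fn1, the fibronectin gene (-2.17 ± 0.64, adjusted p = 0.0710), and Postn, the periostin gene (-0.21 ± 0.50, adjusted p = 0.808), were not called.

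Hypoxia factors and their targets split in both directions. Of 24 measured genes 3 were called higher in MSC (12.5%) and 4 in JG, against 7.63% and 7.70% of all genes. The MSC share was thus near that of all genes, and the median was -0.19. Hif1a, whose product induces P4ha1, P4ha2, Plod2 and Lox in low oxygen, read 2011.57, 1793.69 and 1376.66 in MSC and 664.96, 364.71 and 525.38 in JG (-1.73 ± 0.31, limma adjusted p = 0.0145). Epas1, the gene of the sister factor HIF-2 alpha, was higher in JG, at 150.81, 380.47 and 34.39 in MSC and 2739.42, 1693.2 and 2207.39 in JG (3.87 ± 0.73, adjusted p = 0.0177). Among the targets, the hexokinase gene Hk2 (-4.48) and the oxidase gene Ero1a (-1.65) were higher in MSC, and Ndrg1 (3.60), Car9 (1.64) and Bnip3 (1.13) higher in JG. Ldha (0.08, adjusted p = 0.863) and Adm (0.30, adjusted p = 0.480) were not called. Hk2 and Ndrg1 kept their call with any single sample left out. Hif1a lost it without MSC sample 1 or 2 (adjusted p up to 0.0714) and Epas1 without MSC sample 1 or JG sample 3 (up to 0.0681). When MSC sample 1 was missing, 1 gene was called in each direction. When MSC sample 2 was missing, 2 were called in the JG and 1 in the MSC direction, and MSC sample 3 or JG sample 3 missing left 2 in the JG direction.

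The hydroxylases need ascorbate as a cofactor, and 2 of 6 genes of its supply were called higher in JG, against 7.70% of all genes. Slc23a1, the ascorbate transporter gene of epithelia, read 50.75, 19.54 and 30.8 in MSC and 544.33, 192.63 and 385.84 in JG (2.91 ± 0.44, limma adjusted p = 0.00825), and Akr1a1, an aldehyde reductase gene, was called at 1.13 (adjusted p = 0.0228). The proximal tubule, whose markers were summed above, is known to carry that transporter, and the part of tubule RNA in this difference was not tested. The broadly expressed transporter gene Slc23a2 read 112.44, 151.09 and 141.35 in MSC and 129.21, 95.27 and 104.37 in JG, with no call (adjusted p = 0.490). None was called higher in MSC by limma (7.63% of all genes were), and 1 was at an unadjusted p under 0.05 (Gsto1, -1.29, adjusted p = 0.135). Slc23a1 alone passed when any MSC sample or JG sample 3 was missing. With JG sample 1 missing, 3 genes passed in the JG and 1 in the MSC direction.

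In the TGF-beta pathway, a known inducer of lysyl oxidases, limma called 5 of 13 genes with MSC higher (38.5%, against 7.63% of all genes). None was called with JG higher (7.70% of all genes), also 0 at an unadjusted p under 0.05. The median was -1.40. Ltbp2 (-4.91) and Tgfb3 (-4.52) led, followed by Smad7 (-2.67), Tgfb1 (-2.61) and Ccn2 (-2.03). The list mixes ligands, receptors, Smad genes, binding proteins and targets, so these calls do not measure the activity of the pathway. Tgfb3 read 1060.68, 1179.22 and 1017.18 in MSC and 105.47, 11.62 and 16.93 in JG (limma adjusted p = 0.00417). The receptor gene Tgfbr2 (0.63, adjusted p = 0.195) and Smad3 (-1.40, adjusted p = 0.492) were not called. Smad3 read 26.12 in JG sample 2 and 1234.77 and 994.52 in JG samples 1 and 3. The count was 3 without MSC sample 2, MSC sample 3 or JG sample 3, and Ltbp2, Tgfb3 and Smad7 kept their call with any single sample left out.

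**Figure D5:**
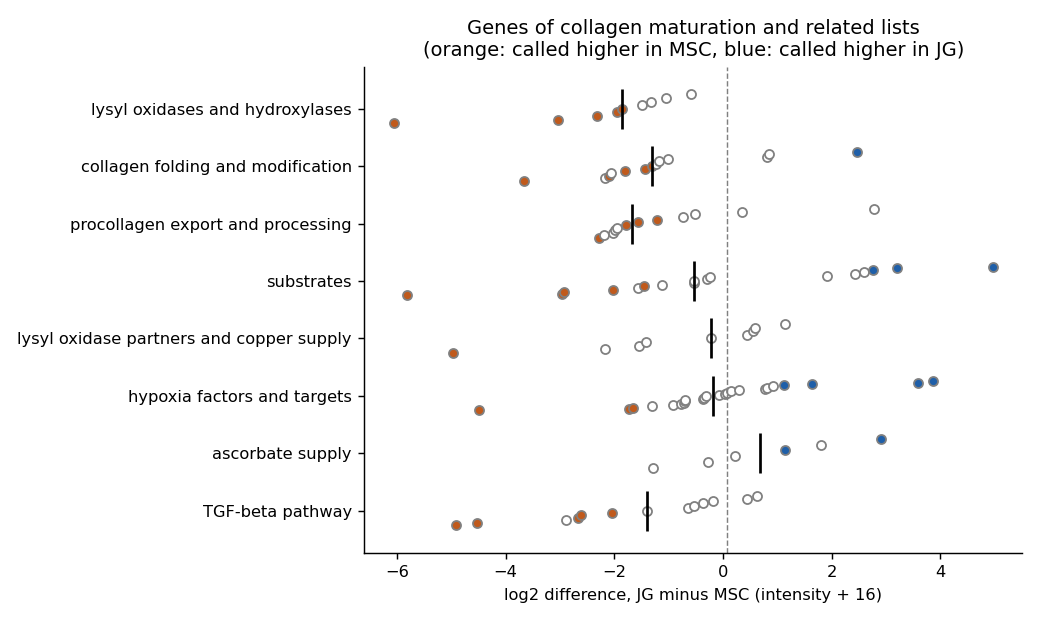
Log2 difference, JG minus MSC, of each measured gene in the 8 lists. Orange points were called higher in MSC, blue points higher in JG and open points were not called, black bars are list medians and the dashed line is the median of all genes (0.07). The lysyl oxidases and hydroxylases lie wholly on the MSC side, with a median of -1.86, while the substrates run from -5.81 for Col11a1 to 4.96 for Col6a2.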

How the data were processed

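Per the labels, 100 ng total RNA of each of 6 samples was made into biotinylated cRNA for Affymetrix arrays. The authors deposited 1 linear intensity per probe set and array. Probe summary, background and scaling are not given in the sources used here, so whether the deposited arrays were scaled is not known. Array medians and trimmed means differ, and the main fit applied no further scaling. The number of arrays limits the precision. Of 45037 probe sets, 34945 were paired with 1 gene, 932 with several and 9160 with none in GEO's platform annotation. Of the 34945, 34741 were matched by identifier to RefSeq genes of GRCm38.p6, and 0 symbols changed. Each gene was represented by its brightest probe set.

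Values were log2 of intensity plus 16, unfiltered. JG minus MSC was fitted with limma 3.58.1 in R 4.3.3 (lmFit, eBayes) over all 6 samples without covariates, once for 18193 genes and once for all probe sets, with Benjamini-Hochberg adjustment over all of them. The fit was tested on simulated data drawn with the same spread in both groups, whereas most member probe sets varied more in JG. That test therefore does not cover unequal spread, and its outcome is not given here. Members and lists were chosen with earlier results of these data known. The naming rule took all members and probe sets, up to 4 called genes with the largest difference and up to 2 uncalled genes of highest mean per list, P4hb, Serpinh1, Col1a1, Col1a2, Hif1a and Bmp1, and the 3 genes nearest in pattern to a member. Other called list genes, Slc31a1, Pcolce2 and the markers were named after their values were seen. Alternatives varied the pseudocount, scaling, filter, probe sets, variance prior, array weights, replicate block and the samples used. Same-numbered samples did not deviate together (correlations -0.20, -0.01 and -0.01 across genes), so they were not paired.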

Additional observations from a re-analysis of the deposited data

How the results depend on the processing

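All member differences stayed negative in every alternative run. Lox, Loxl3 and P4ha1 were called in all 17, P4ha2 in 14, Plod2 in 12, Loxl4 in 5 of the 16 that kept it, Loxl1 and Plod3 in 1 each and Plod1 in none. Leaving out 1 sample gave 3 to 5 members and 4 to 12 member probe sets called higher in MSC, against 5 and 12. Over all genes, 1139 to 5194 were called in both directions together, against 2790. Of these, 411 to 2643 were higher in MSC, against 1389. For member probe sets, here and with the replicate block below, the share of all probe sets called is not given. In such fits fewer residual degrees of freedom remain. Array weights called 6177 genes in both directions together, 2969 of them higher in MSC, and 7 members higher in MSC, adding Loxl4 and Plod3. The samples share only a number. With that number as a replicate block, 1613 genes were called in both directions together, 710 of them higher in MSC. That limma fit called 4 members (Plod2 was lost, adjusted p = 0.0701) and 4 member probe sets higher in MSC. Best correlation with their own number was found in 0 of 6 samples.

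List counts moved as follows, with the cause not tested. The share of all genes called higher in MSC moved too, from 2.26% without MSC sample 3 to 14.5% without JG sample 1. It was 16.3% with array weights and 3.90% with the replicate block. For collagen folding and modification, array weights gave 9 higher in MSC, the replicate block 3 higher in MSC and 0 in JG, and leaving out 1 sample 2 to 9 and 0 to 1. For export and processing, a pseudocount of 1 gave 2 higher in MSC, array weights 9 in MSC and 1 in JG, the block 1, and leaving out 1 sample 0 to 8 and 0 to 1. For substrates, quantile normalization and both filters on dim genes gave 5 higher in JG, array weights 6, the mean of probe sets 3 in MSC, and leaving out 1 sample 1 to 7 in MSC and 1 to 4 in JG. For partners and copper supply, both filters, the mean of probe sets, the trend and robust prior and array weights gave 2 in MSC, and quantile normalization and array weights 1 in JG, with 1 to 2 and 0 to 1 when a sample was left out. For hypoxia genes, a pseudocount of 1 gave 2 in JG, and leaving out 1 sample 1 to 5 in JG and 1 to 4 in MSC. For ascorbate supply, the mean of probe sets gave 1 in JG and 1 in MSC, array weights 1 in MSC, the block 1 in JG, and leaving out 1 sample 1 to 3 and 0 to 1. For the TGF-beta pathway the block gave 3 in MSC, and leaving out 1 sample 3 to 6.

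Between pairs of family members, the mean of probe sets in place of the brightest moved Lox minus Loxl1 from -5.46 to -3.73 and Lox minus Loxl3 from -3.72 to -2.48. These alternatives of the pairs were added after seeing the data. With a pseudocount of 64, P4ha1 minus P4ha2 was -0.29 in place of -0.10. The second Plod1 probe set lay below 16 on all arrays, so its samples have no order. With a pseudocount of 64 in place of 16, the called differences of P4ha3 (-3.66), Smad7 (-2.67), Tgfb1 (-2.61), Car9 (1.64) and P3h1 (-1.43) were -2.41, -1.71, -1.57, 0.99 and -0.95, and Tgfb1 and Car9 were then not called.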
